A study of Mus musculus with 8 samples.

Results

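Matrix metalloproteinases are zinc-dependent enzymes that cut collagens, elastin and other proteins outside the cell, and tissue inhibitors of metalloproteinases (TIMPs) bind their active site and block it. Macrophages in tumors are a known source of both, and the balance between enzyme and inhibitor sets how much matrix is cut. The 7 genes described here are 4 enzymes and 3 inhibitors, chosen by name with no cutoff on their measured values, out of 32285 genes in the deposited matrices. Earlier results of these data were known when they were chosen. Mmp12 encodes macrophage elastase, Mmp13 encodes a collagenase, Mmp14 encodes a membrane-anchored enzyme that activates pro-MMP2, and Mmp19 encodes a secreted enzyme that cuts basement membrane proteins. Timp1 and Timp2 encode secreted inhibitors, TIMP2 also being the bridge between MMP14 and pro-MMP2, and Timp3 encodes an inhibitor that stays bound to the matrix.

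Mice carried subcutaneous MC38 tumors, a colon carcinoma line, and cells positive for CD45 and CD11b and high for Ly6C, a gate meant for monocytic suppressor cells, were taken from tumor or blood for droplet single-cell RNA-seq. Mice were 8 to 10 weeks old and were either Ythdf2 flox/flox (WT) or Ythdf2 flox/flox with Cre at the Lyz2 locus (cKO), so that all groups carried the floxed allele and Cre was driven where Lyz2 is expressed, in myeloid cells. Tumors were untreated (control) or received 1 dose of 20 Gy of ionizing radiation (IR), and cells were taken 3 days after IR. Each group was 1 pool of 5 mice, and the 8 groups lay in 4 libraries, each of which mixed both genotypes. With 1 pool a group no test between conditions was possible, intervals cover counting error only, and differences between mice cannot be seen.

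The gene UMIs (unique molecular identifiers, 1 per captured transcript 3′ end) summed to between 51653956 and 87703837 per library, and 28834 cells with a clear hashtag were kept, with a median of 2808 to 8458.5 UMIs per group. The hashtag genotype was checked on 2 genes. Lyz2, whose coding sequence is interrupted by Cre, was at 6208 to 13945 CPM (UMIs of the gene per 1000000 gene UMIs) in cells labelled WT and at 82.7 to 138 CPM in cells labelled cKO. Ythdf2 itself went against the label: it was at 32.6 to 55.4 CPM in cells labelled WT and at 302.1 to 514 CPM in cells labelled cKO, and since 3′ tags need not lie in the deleted part, this gene checks nothing about the deletion. The cause of its higher level in cells labelled cKO was not tested. Cells are therefore called labelled WT or labelled cKO. The 2 tumor matrices shared barcodes: 4543 of 4729 kept control cells and 6742 of 6966 kept IR cells had at least 500 UMIs under the same barcode in the other tumor matrix. The UMI count in the cell's own matrix was a near constant multiple of that in the other, with a median of 2.20 for control and 1.70 for IR cells, and the barcode carried under 20 hashtag UMIs in the other matrix for 4415 and 6590 of them. Cells were assigned to the matrix that held their hashtags, and results read from the other matrix are given where they differ.

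The positions of the genes on GRCm38 (mm10) put Mmp13 (chromosome 9, 7272514 to 7283331, plus strand) and Mmp12 (chromosome 9, 7344381 to 7369499, plus strand) side by side, 61049 bases apart. Mmp14 lies on chromosome 14 (54431612 to 54445364), Mmp19 on chromosome 10 (128790910 to 128800824), Timp1 on chromosome X (20870166 to 20874735), Timp2 on chromosome 11 (118301069 to 118355740) and Timp3 on chromosome 10 (86300372 to 86349506). All are protein-coding. Mmp12 overlaps Mmp1b, Mmp19 overlaps Tmem198b and the antisense gene Gm47093, and Timp1 and Timp3 overlap Syn1 and Syn3, each on the opposite strand, while Timp2 overlaps Cep295nl on its own strand. Of the 7 genes, 6 had promoters in the RefSeq table (7 entries, build GRCm38.p6, Mmp12 with 2 start sites). The letters TGANTCA, the AP-1 consensus, which reads the same on both strands, stood within 250 bases before the start site of Mmp13 and of the downstream start site of Mmp12, in 2 of the 7 entries, and in 6.75% of 32817 promoters of that length. Windows of 30 bases around both matches are shown because these neighbouring genes have the most similar profiles of the set, with the match in capitals. The Mmp13 window is chr9:7272476-7272505 and the Mmp12 window is chr9:7347319-7347348, both on the plus strand, and the match begins 35 and 44 bases before the respective start sites.
Mmp13: tggTGACTCAtcactatcatgctataaaat
Mmp12: gacatcaacagTGAGTCAgatagaggattt
The Mmp13 window also holds the letters tataaa, beginning 16 bases before the start site. A match is a description of letters and not of a bound factor.

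Cells fell into 20 clusters, from a clustering that left out these 7 genes and all other proteolysis genes examined. Cluster 10 was macrophage-like, with 9 of 11 macrophage markers raised and Folr2, Mrc1, Ms4a7 and Apoe among its leading genes. Cluster 5 was monocyte-like. Clusters 2 and 3 took no name by the marker rule: cluster 2 led with the interferon-induced genes Rsad2, Ifit1, Ifit2 and Ifit3, and cluster 3 led with the MHC class II genes H2-Ab1, H2-Eb1 and H2-Aa and had the macrophage markers C1qa, C1qb, C1qc, Trem2 and Arg1 raised, but held Cdh1, a carcinoma marker of the fixed lists, and no macrophage marker among its 10 leading genes. Mmp13 itself was among the leading genes of cluster 2, and Mmp12 and Timp2 among those of cluster 15. Clusters 8 and 15, both with few UMIs per cell (medians of 1428 and 1596.5), were unnamed as well, and cluster 12 was neutrophil-like. Cluster 14, with 416 cells and a median of 29677 UMIs, was fibroblast-like and non-immune: the summed level of 5 pan-leukocyte markers was 27.6 to 99.0 CPM there against 6071 to 7757 CPM in immune cells, and 6 fibroblast markers were raised. The 7 carcinoma markers summed to 1.12 to 5.75 CPM in it, and whether it holds MC38 cells was not tested. It is kept apart, and "immune cells" below means all other cells.

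Immune cells of the tumor held all 4 metalloproteinases, and immune cells of the blood held almost none of 3 of them. Mmp12 was at 551 CPM (95% Poisson interval 540 to 562) in tumor cells labelled WT of control tumors, at 690 CPM (678 to 702) after IR, at 519 CPM (508 to 530) in cells labelled cKO of control tumors and at 816 CPM (804 to 827) after IR. In blood, Mmp12 had 1 to 4 UMIs in each of the 4 groups, out of at least 19328328 gene UMIs. The tumor and blood values of Mmp12 do not overlap, which is a description only, since how many other genes do the same was not counted. Between the tissues, 31.0% to 35.4% of all genes with at least 100 UMIs had an absolute log2 ratio of at least 1.

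Mmp13 was at 77.9, 111, 73.3 and 192 CPM in the same order of tumor groups and had 0 to 6 UMIs per blood group. Mmp14 was at 137, 148, 176 and 180.2 CPM, with 3 to 15 UMIs per blood group. For Timp1 the values were 94.8, 153, 115 and 130.3 CPM, with 0 to 3 UMIs per blood group. These are levels of single genes on a 3′ count scale and are compared between groups, not between genes.

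Mmp19 was the one enzyme above 1 CPM in blood, where it stood at 8.80 to 11.4 CPM, against 151 (control WT), 206 (IR WT), 109.8 (control cKO) and 231 CPM (IR cKO) in the tumor. The monocyte-like cluster 4 held most of it, at 26.3 CPM over all blood cells of that cluster, and the main neutrophil-like clusters 0, 1 and 7 were at 0.248 to 0.539 CPM.

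Timp2 departed from this pattern. It was at 88.4 to 92.3 CPM in all 4 blood groups and at 93.0, 53.5, 150.0 and 70.7 CPM in tumor control WT, IR WT, control cKO and IR cKO. In blood it was highest in the neutrophil-like clusters, at 116 CPM in cluster 0, 227 in cluster 1 and 247 in cluster 13, against 29.4 CPM in the monocyte-like cluster 4. The blood level was thus nearly constant over treatment and genotype, and the tumor level lay above or below it depending on the group.

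**Figure D1:**
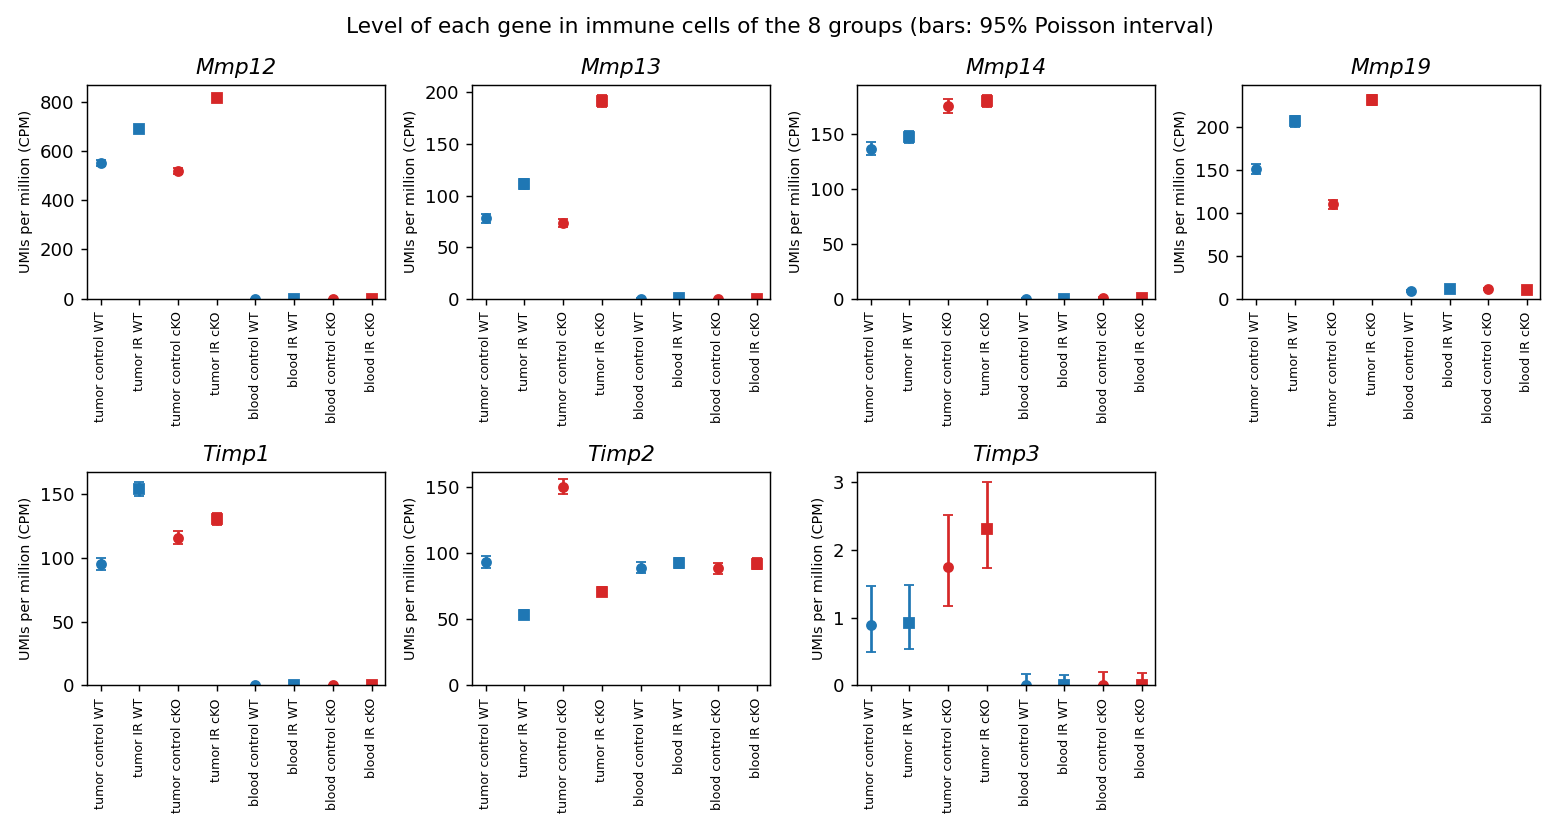
UMIs per 1000000 (CPM) of each gene in immune cells of the 8 groups, circles for control and squares for IR, blue for cells labelled WT and red for cells labelled cKO, with 95% Poisson intervals for counting error. Mmp12, Mmp13, Mmp14 and Timp1 sit near 0 in all 4 blood groups, Mmp19 is at 8.80 to 11.4 CPM there, and Timp2 is at 88.4 to 92.3 CPM there.

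A gene was counted as past the limit where it had at least 100 UMIs over both groups and an absolute log2 ratio of at least 1. Tumor against blood, 5 of the 6 genes with enough UMIs were past it in every group. Of these, Mmp12, Mmp13, Mmp14 and Timp1 had 0 to 15 UMIs per blood group and so reached the 100 UMIs through the tumor alone, which fixed their direction, and their count is a description only. Mmp19 and Timp2 had at least 100 UMIs in each blood group too. Over all genes, 31.0% of all genes were past the limit for WT control, 31.2% for WT IR, 35.4% for cKO control and 31.6% for cKO IR. The log2 ratio of Mmp19 was 4.09 (95% counting interval 3.89 to 4.32) in WT control, 4.26 in WT IR, 3.26 in cKO control and 4.49 in cKO IR. With 1 UMI in the blood group, the log2 ratio of Mmp12 in WT control was 12.47, with an interval of 11.07 to 18.86, and where the blood group had 0 UMIs (Mmp13 and Timp1 in cKO control) no upper bound exists. Timp2 was not past the limit, at 0.07, -0.79, 0.76 and -0.38 in the same order. These libraries differ by tissue and by the cell types that passed the sort, and neither can be told apart from the level per cell.

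Timp3 was at 0.884 to 2.30 CPM in tumor immune cells, from 15 to 54 UMIs per group, and had 0 UMIs in each blood group. In the shallowest blood group, of 19328328 UMIs, a floor of 3 UMIs is 0.155 CPM, and the upper bound of the exact interval for 0 UMIs is 0.191 CPM. A gate for CD45 and CD11b is meant to leave fibroblasts out, so the fibroblast-like cells are cells outside the intended sort, and their number says nothing of fibroblasts in the tumor. They held 96.4% of all Timp3 UMIs of tumor cells at 205 to 259.7 CPM per group. Fibroblast-like cells also held 58.8% of the Timp2 UMIs (675 to 774 CPM per group), 33.3% of the Timp1 UMIs (304 to 372 CPM) and 7.55% of the Mmp14 UMIs (53.5 to 83.0 CPM), but 0.112% of the Mmp12, 0.165% of the Mmp13 and 0.409% of the Mmp19 UMIs. All 3 inhibitors were thus highest per UMI in a cell type that made up 0.867% to 10.5% of the cells of a tumor group, and the macrophage enzymes Mmp12 and Mmp13 were at 3.50 to 5.30 and 0.701 to 2.12 CPM in it.

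**Figure D2:**
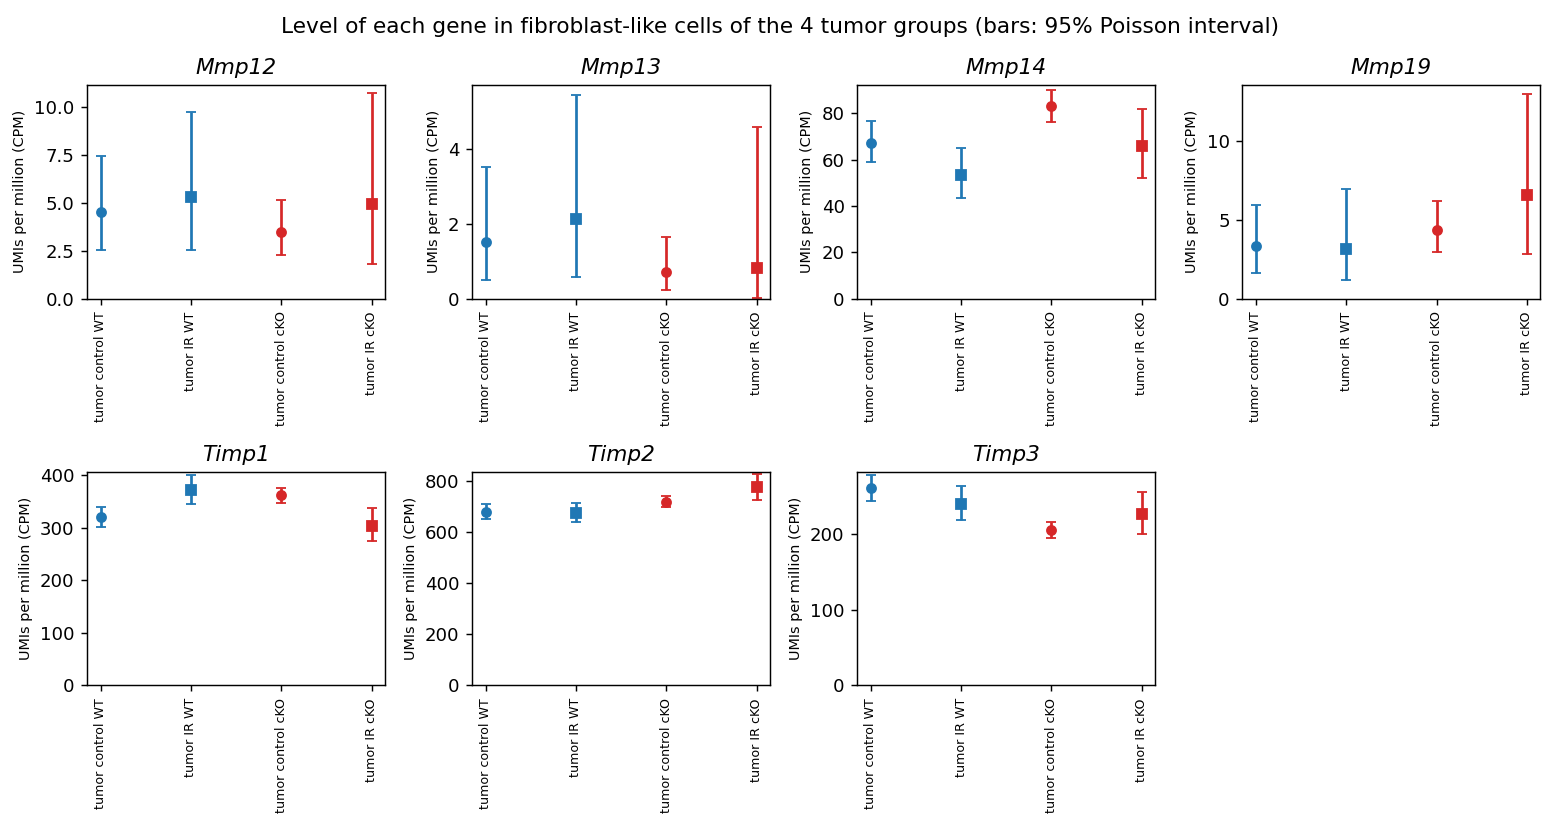
UMIs per 1000000 of each gene in the fibroblast-like cells of the 4 tumor groups (107, 47, 229 and 33 cells in the order plotted), with 95% Poisson intervals. Timp2 is at 675 to 774 CPM and Timp3 at 205 to 259.7 CPM, and Mmp12, Mmp13 and Mmp19 stay under 10 CPM.

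Outside the fibroblast-like cells, cluster 15 was the one immune cluster with Timp3 above a few CPM, at 117 CPM over 296 cells. Its level was 85.9, 126, 45.1 and 182 CPM in control WT, control cKO, IR WT and IR cKO, from 7, 20, 9 and 43 UMIs, and 41 of the 43 came from 1 cell. The same cluster carried fibroblast markers at a summed 458 to 1024 CPM, with Lum and Pdgfra at 0 in all 4 groups, against 0 to 10.7 CPM in clusters 2, 3, 5 and 10. The part of this in the Timp3 values was not tested.

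Each enzyme had its own order of clusters in the tumor. Over the 4 tumor groups pooled, Mmp12 was at 1601 CPM in cluster 15, 1377 in cluster 2, 859 in cluster 8, 645 in the macrophage-like cluster 10 and 595 in cluster 3, against 46.6 CPM in the monocyte-like cluster 5. The pooled order was not that of each group, since the groups hold the clusters in different shares. Cluster 10 was below cluster 2 in control tumors (871 against 2299 CPM in WT, 347 against 2647 in cKO) and above it after IR (2341 against 1070 in WT, 1862 against 1334 in cKO), and in control cKO it was below cluster 3, at 618 CPM. Cluster 2 held 73.1% of the Mmp13 UMIs, at a pooled 347 CPM, against 139 CPM in cluster 10 and 34.4 CPM in cluster 3. In IR cKO, Mmp13 was at 395 CPM in cluster 2 and 414 CPM in cluster 10, and in IR WT at 238 and 207 CPM, so that the pooled gap lay in the control groups, at 433 against 211 CPM in WT and 583 against 81.8 CPM in cKO. The neighbours on chromosome 9 thus shared cluster 2 and differed in cluster 3, where Mmp12 held 28.5% and Mmp13 9.03% of its UMIs.

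Mmp14 was highest in cluster 8, at 289 CPM. It was at similar levels in 3 other clusters, at 205, 197 and 226 CPM in clusters 2, 3 and 10. In the monocyte-like cluster 5 it was at 62.2 CPM. Mmp19 was at 240 CPM in cluster 3, 215 in cluster 2 and 167 in cluster 5, and lower, at 68.5 CPM, in the macrophage-like cluster 10. Its highest level, 403 CPM, was in cluster 8, a cluster of few UMIs per cell led by mitochondrial genes and Malat1. Timp1 was at a pooled 167, 121 and 151 CPM in clusters 2, 3 and 5 and at 77.5 CPM in cluster 10, and its order too differed by group, with 80.6, 107 and 127 CPM in clusters 2, 3 and 5 of control WT.

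Timp2 had another order than Mmp19. It was at 426 CPM in the macrophage-like cluster 10, 467 in cluster 15 and 349 in the neutrophil-like cluster 12, and at 55.1, 31.8 and 21.5 CPM in clusters 2, 3 and 5. Cluster 10 held 22.4% of the Timp2 UMIs and 11.1% of the Mmp12 UMIs.

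**Figure D3:**
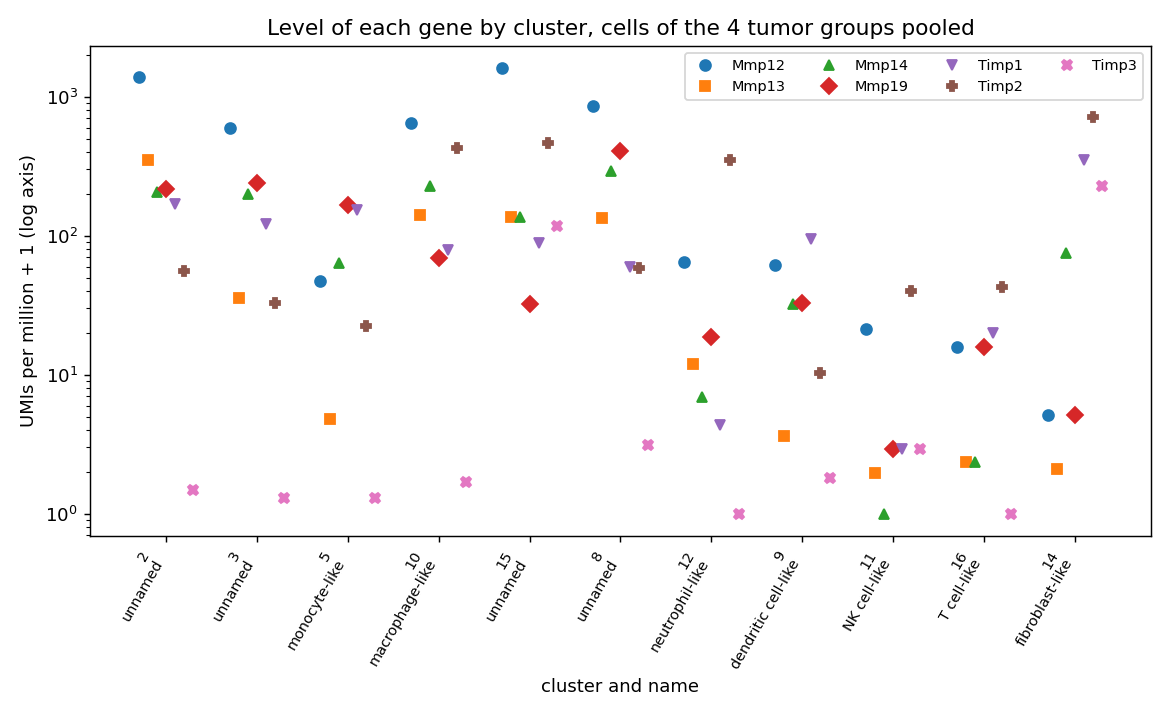
UMIs per 1000000 plus 1, on a log axis, of each gene in 11 clusters of tumor cells, with the 4 tumor groups pooled and each symbol 1 gene. Mmp12 is above 500 in clusters 2, 3, 8, 10 and 15, Timp3 stands above 100 in clusters 14 and 15 alone, and Timp2 is highest in cluster 14.

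Free RNA was measured beside these values. Barcodes under 100 UMIs, taken as free RNA, held Mmp12 at 605 CPM in tumor control and 664 CPM in tumor IR, close to the level in immune cells, and Timp3 at 17.2 and 12.2 CPM, above that in immune cells. In the fibroblast-like cells Mmp12 was at 3.50 to 5.30 CPM, and in the NK cell-like cluster 11 at 20.3 CPM. The monocyte-like cluster 5, at 46.6 CPM, was above both. It was below the neutrophil-like cluster 12 (63.2 CPM) and the dendritic cell-like cluster 9 (60.3 CPM). Clusters 2, 3 and 10 were far above all of these. The part of free RNA in the cluster 5 value was not tested. The share of cells with an Mmp12 UMI in cluster 2 was 62.6%, 62.9%, 36.5% and 46.3% in control WT, control cKO, IR WT and IR cKO, and 56.0%, 50.4%, 27.4% and 34.6% when each cell was thinned to 2000 UMIs. In the NK cell-like cluster it was 2.52% to 7.41% unthinned, at median depths of 2294 to 2672 UMIs against 5608 to 6724 in cluster 2.

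The UMIs of Mmp13 were unevenly spread over cells. In cluster 2 the 10 cells with the most UMIs held 40.3% of the Mmp13 UMIs in control WT, 72.2% in control cKO, 34.5% in IR WT and 24.4% in IR cKO. Of the cluster 2 cells with an Mmp12 UMI, 44.4%, 38.4%, 35.4% and 42.7% also had an Mmp13 UMI in the same order, against 9.90%, 18.6%, 9.70% and 18.6% of the cells without one. In cluster 3 these shares were 5.52%, 11.8%, 12.2% and 15.2% against 2.42%, 5.54%, 6.47% and 7.52%. In the macrophage-like cluster 10 they were 43.0%, 26.9%, 31.6% and 43.2% against 10.3%, 12%, 33.3% and 12.5%, so that IR WT, with 31 cells, did not share the direction. The shares are a description, since deeper cells have more UMIs of any gene.

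Over 34 profiles (10 clusters by tumor group, each with at least 50 cells), Mmp12 and Mmp13 had the highest correlation of the set (Pearson r = 0.91 of log2(CPM + 10)), and each was the gene most like the other among all genes with at least 1000 UMIs. Next to Mmp12 came F7, encoding coagulation factor VII, and Arg1, encoding arginase 1 (r = 0.90 and 0.89). Next to Mmp13 came Lhfpl2 and Tmem119 (r = 0.88 and 0.86). Mmp14 was most like Adam15, Lrp1 and Dab2 (r = 0.97, 0.95 and 0.95), of which Lrp1 encodes an endocytic receptor that clears metalloproteinases. Mmp19 was most like Carmil1, Pid1 and Tcirg1 (r = 0.94, 0.94 and 0.94), and Timp1 most like Anxa5, Asah1 and S100a4 (r = 0.91, 0.90 and 0.89). For Timp2 they were Serpinb6a, Vcam1 and Tceal9 (r = 0.85, 0.84 and 0.82), and for Timp3 the basement membrane genes Hspg2 and Lamb1 and the gene Npdc1 (r = 0.99 for each). Fibroblast-like cells held 96.4% of the Timp3 UMIs and gave profiles in control WT and control cKO alone (107 and 229 cells). The correlations of Timp3 thus rest on few profiles and mostly set these cells against the rest. Points of one group share a library, so the correlations are descriptions.

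How IR and the genotype label moved with these levels was compared in tumor immune cells first. In cells labelled WT, none of the 6 genes with at least 100 UMIs was past the limit between IR and control, where 5.35% of all genes were (497 of 9283). Timp1 was higher after IR by a log2 ratio of 0.69 (95% counting interval 0.61 to 0.78), Mmp13 by 0.51 (0.41 to 0.61), Mmp19 by 0.45 (0.38 to 0.52) and Mmp12 by 0.32 (0.29 to 0.36). Timp2 was lower, at -0.80 (-0.91 to -0.68), and Mmp14 was at 0.11 (0.03 to 0.19).

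In cells labelled cKO, 3 of the 6 genes were past the limit, against 10.2% of all genes (988 of 9645). Mmp13 was higher after IR by a log2 ratio of 1.39 (1.29 to 1.48), from 73.3 to 192 CPM, and Mmp19 by 1.07 (0.99 to 1.15), from 109.8 to 231 CPM. Timp2 was lower, at -1.08 (-1.17 to -0.99), from 150.0 to 70.7 CPM. Mmp12 was at 0.65 (0.62 to 0.69), Timp1 at 0.17 (0.09 to 0.26) and Mmp14 at 0.04 (-0.03 to 0.11). The directions were the same as in cells labelled WT for each of the 6 genes, with the interval of Mmp14 in cells labelled cKO spanning 0. The difference between genotypes was not tested, and read from the other tumor matrix the same 3 genes kept ratios of 1.45, 1.01 and -1.16.

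Between genotypes no gene was past the limit. In control tumors, where 3.14% of all genes were (297 of 9464), Timp2 was higher in cells labelled cKO by a log2 ratio of 0.69 (0.60 to 0.78), Mmp14 by 0.36 and Timp1 by 0.28, and Mmp19 was lower, at -0.46 (-0.55 to -0.37). After IR, where 0.359% of all genes were past the limit (34 of 9464), Mmp13 was higher in cells labelled cKO by 0.79 (0.71 to 0.87), Timp2 by 0.40, Mmp14 by 0.29 and Mmp12 by 0.24, and Timp1 was lower, at -0.24. The median log2 ratio of all genes was between -0.10 and 0.06 in these 4 comparisons.

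The clusters that hold these genes differed in share between the groups. Cluster 2 made up 10.6% of the kept cells in control WT and 32.9% in IR WT, and 5.33% in control cKO and 35.3% in IR cKO. The macrophage-like cluster 10 went the other way, with 7.05% in control WT and 0.981% in IR WT, and 21.5% in control cKO and 1.58% in IR cKO. The neutrophil-like cluster 12 was at 0.588%, 10.2%, 1.24% and 6.33% in the same order. Fibroblast-like cells, left out of the immune comparisons, made up 4.19%, 1.49%, 10.5% and 0.867%. In cells of a sort gate, shares say which cells passed the gate and not how many were in the tumor.

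**Figure D4:**
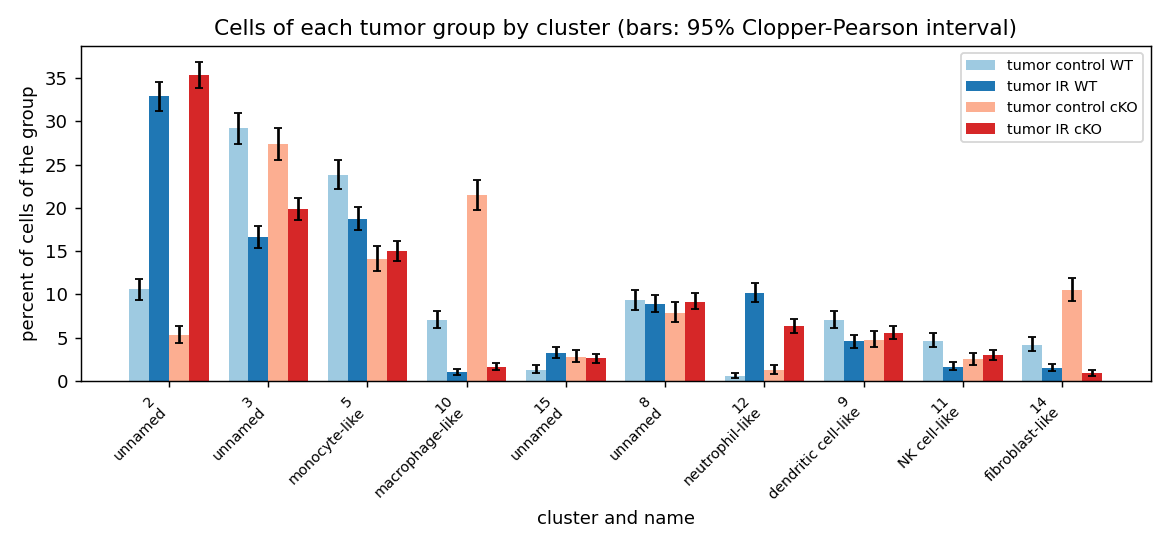
Percent of the kept cells of each tumor group in 10 clusters, with 95% Clopper-Pearson intervals, light bars for control and dark bars for IR, blue for cells labelled WT and red for cells labelled cKO. Cluster 2 is the tallest after IR in both genotypes, at 32.9% and 35.3%, and cluster 10 reaches 21.5% in control tumors of cells labelled cKO.

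Weighted to equal cluster shares, a calculation added after the data were examined, the IR ratios took other values. For Mmp13 the log2 ratio was -0.50 in cells labelled WT (0.51 unweighted) and 0.00 in cells labelled cKO (1.39 unweighted). Mmp12 was at -0.08 and -0.23 (0.32 and 0.65 unweighted), and Timp2 at 0.14 and 0.39 (-0.80 and -1.08 unweighted). Mmp19 was at 0.47 and 0.87 (0.45 and 1.07 unweighted), and Timp1 in cells labelled WT at 0.58 (0.69 unweighted). None of the 3 genes past the limit in cells labelled cKO (Mmp13, Mmp19 and Timp2) was past it in the same direction at equal shares. They differed, since Mmp19 stayed higher, Mmp13 was near 0 and Timp2 had the other sign. Each of 10 immune clusters was weighted by its share of the pooled tumor UMIs. Some rest on few cells: cluster 12 had 15 and 27 in control WT and control cKO, and cluster 10 had 31 in IR WT.

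Within cluster 2, Mmp12 was lower after IR, at 2299 CPM in control WT against 1070 in IR WT (log2 ratio -1.10, interval -1.16 to -1.05) and 2647 CPM in control cKO against 1334 in IR cKO (-0.99, -1.05 to -0.92). Mmp13 was lower too, at -0.86 (-0.99 to -0.74) and -0.56 (-0.70 to -0.42). Mmp19 was higher in both labels, by 0.85 (0.65 to 1.07) and 0.83 (0.55 to 1.12), and Timp1 by 1.32 (1.07 to 1.59) in cells labelled WT and 0.45 (0.16 to 0.76) in cells labelled cKO. The control groups of cluster 2 had 270 and 116 cells, and few cells carried some sums. The 10 cells with the most UMIs held 74.1% of the Timp1 UMIs in control WT, 83.7% in control cKO, 40.5% in IR WT and 23.5% in IR cKO. For Mmp19 these shares were 51.4%, 65.7%, 10.7% and 8.73%, and for Mmp12 35.2%, 52.2%, 25.7% and 18.3%. The counting intervals do not cover this spread between cells. The median of all genes was 0.16 in both comparisons, so the higher values stood that much less above it. The 8 monocyte markers differed as well, at a summed 2998 CPM in control WT and 9457 in IR WT, and 2675 in control cKO and 7303 in IR cKO, with none at 0, while the 11 macrophage markers were at 6916, 7846, 12413 and 10655 CPM in the same order. At resolution 1.2, Mmp12 and Mmp13 were among the leading genes of an unnamed cluster of 1067 cells, with Arg1, Mrc1 and Trem2 raised. A separate monocyte-like cluster of 1544 cells led there with Ifit1bl1, Rsad2 and Ifit2. How cluster 2 divides over these clusters, and the part of this and of the markers in the values, was not tested.

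Within cluster 3, Mmp12 was at 476 CPM in control WT and 747 in IR WT (0.65, 0.58 to 0.72), and at 618 CPM in control cKO and 586 in IR cKO (-0.08, -0.14 to -0.01). Mmp13 was higher by 1.70 (1.33 to 2.11) in cells labelled WT, from 12.3 CPM, and by 0.50 (0.25 to 0.75) in cells labelled cKO, from 36.2 CPM. Its 10 cells with the most UMIs held 77.8% of them in control WT, 54.9% in IR WT, 57.6% in control cKO and 49.2% in IR cKO. Mmp19 was higher by 0.15 (0.04 to 0.26) in cells labelled WT and by 1.11 (1.0 to 1.22) in cells labelled cKO. In the monocyte-like cluster 5, Timp1 was higher by 0.56 (0.39 to 0.73) and 0.60 (0.37 to 0.83), and Mmp12 lay within its counting interval of 0, at -0.08 (-0.41 to 0.25) and -0.09 (-0.43 to 0.26). The pooled and within-cluster values of Mmp12 therefore differ in sign in cluster 2.

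**Figure D5:**
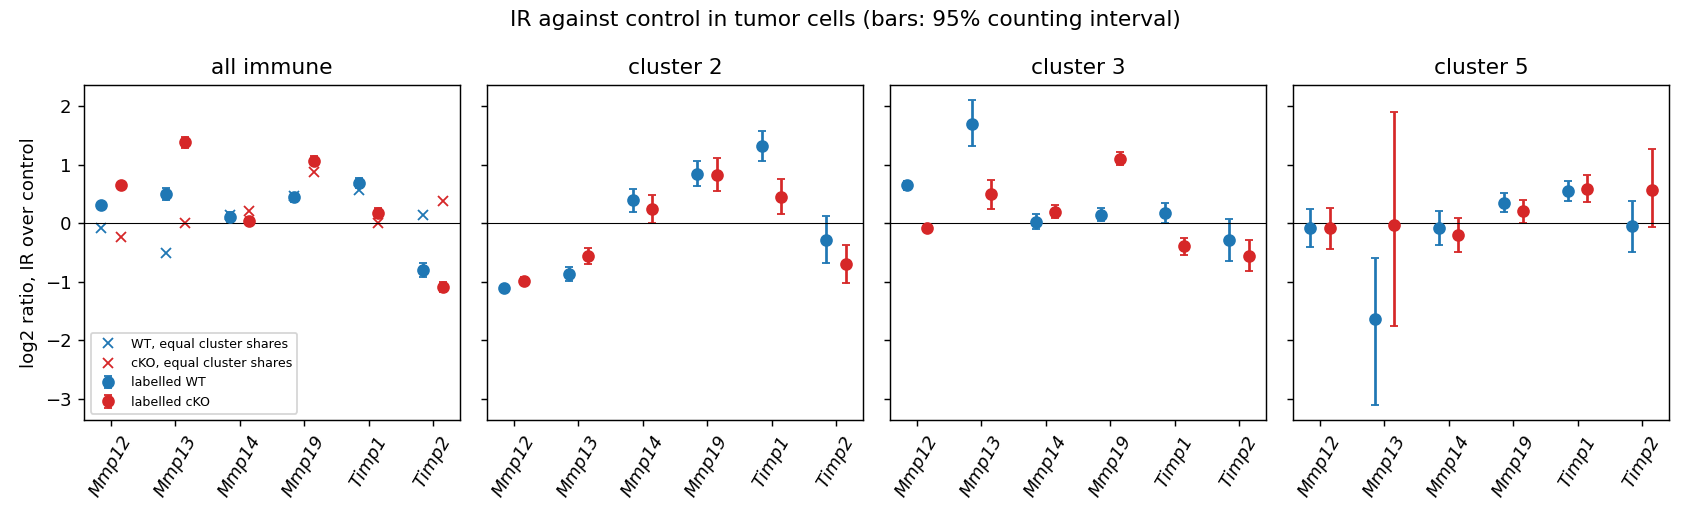
Log2 ratio of IR over control for 6 genes (Timp3 had under 100 UMIs) in all tumor immune cells and in clusters 2, 3 and 5, blue for cells labelled WT and red for cells labelled cKO, bars for the 95% counting interval, and crosses in the first panel for equal cluster shares. Mmp12 and Mmp13 are above 0 over all immune cells and below 0 within cluster 2, where Mmp19 and Timp1 are above 0.

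In the macrophage-like cells, 2 of 6 genes were past the limit after IR in cells labelled WT, where 4.74% of all genes were, and 4 of 6 in cells labelled cKO, where 8.34% were. Only 31 and 60 macrophage-like cells were left after IR, against 180 and 467 in control tumors. Mmp12 was at 871 CPM in control WT, 2341 in IR WT, 347 in control cKO and 1862 in IR cKO, with log2 ratios of 1.42 (1.3 to 1.55) and 2.42 (2.31 to 2.53). A few cells carried these sums: the 10 cells with the most UMIs held 98% of the Mmp12 UMIs in IR WT, 72.7% in IR cKO, 56.3% in control WT and 30.9% in control cKO. Markers of other classes moved with IR in this cluster: the 8 neutrophil markers summed to 20.8 CPM in control WT and 766 in IR WT, and 25.4 in control cKO and 759 in IR cKO, with Camp, Ngp and Ly6g at 0 in all 4 groups. The 7 platelet or erythroid markers summed to 3628 and 10437 CPM, and 2401 and 11338 CPM, with Gp9 and Alas2 at 0 in all 4. That list holds Pf4, which was among the leading genes of cluster 15 and of a macrophage-like cluster at resolution 1.2. The level of Pf4 within the sum is not given here, so the sum does not single out platelets or erythroid cells. The part of these markers in the ratios was not tested. Mmp19 was past the limit in both labels, at 1.23 (0.74 to 1.72) and 1.12 (0.74 to 1.5), and Mmp13 in cells labelled cKO alone, at 2.33 (2.10 to 2.57) against -0.03 (-0.43 to 0.35). For Mmp13 the 10 cells with the most UMIs held 91.6% of them in IR cKO and all of them in IR WT, against 41.3% in control cKO and 67.0% in control WT. Timp2 stood on the limit in cells labelled cKO, at 1.0 (0.84 to 1.16), and at 0.25 (0.03 to 0.47) in cells labelled WT. Both directions of Timp2 in cells labelled cKO depended on the processing. At clustering resolution 0.4 its ratio in macrophage-like cells was -1.31, but the class was then another set of cells. It held a cluster of 6177 tumor cells led by Nos2, Inhba and Arg1 and a cluster of 661 tumor cells led by Fcrls, Ccl8 and Folr2. At resolution 0.8 the class held 738 tumor cells. Over immune cells at equal shares the Timp2 ratio was 0.39.

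Between genotypes, Mmp12 and Mmp13 were past the limit in macrophage-like cells of control tumors, at -1.33 (-1.42 to -1.24) and -1.37 (-1.56 to -1.18), both lower in cells labelled cKO, where 0.984% of all genes were past it. At clustering resolution 0.4, where the class also held the cluster of 6177 tumor cells, neither gene was (a count of 0). After IR none of 5 genes with enough UMIs was, where 1.38% of all genes were, and Mmp13 was at 0.99 (0.60 to 1.42). Which cells are macrophage-like is a choice of the naming rule: when leading genes were taken over all cells, which adds cluster 15 to the class, the counts after IR were 1 and 2, and read from the other tumor matrix they were 0 and 4.

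Other genes of extracellular proteolysis were read from lists, without the 7 genes. Each count of a list stands against the share of all genes past the limit, 5.35% after IR in cells labelled WT, 10.2% in cells labelled cKO, 3.14% between genotypes in control tumors and 0.359% after IR, and with so few genes a list nothing is read from a single gene past it. Among 17 other matrix metalloproteinases, 3 had enough UMIs in cells labelled WT and 1 was past the limit after IR, and 4 had enough in cells labelled cKO with 2 higher and 1 lower. Mmp9, a gelatinase of neutrophils, was at 1.06 CPM in control WT and 21.5 CPM in IR WT (log2 ratio 4.27, 3.66 to 5.11), and at 8.0 and 17.1 CPM in cells labelled cKO (1.09, 0.81 to 1.39), and it was among the leading genes of the neutrophil-like cluster 12. Mmp2, the enzyme that MMP14 and TIMP2 activate together, was at 4.45 CPM in control cKO and 1.53 CPM in IR cKO (-1.51). None of the 3 other inhibitors (Timp4, Reck and A2m) had 100 UMIs in any of the 4 comparisons.

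Plau, encoding urokinase, was at 110.2 CPM in control cKO and 45.9 CPM in IR cKO (-1.26, -1.37 to -1.15), and Plat, encoding tissue plasminogen activator, was at 5.06 and 1.53 CPM (-1.69). Among 16 sheddases and aggrecanases 0 of 6 measured were past the limit in cells labelled WT and 1 of 6 in cells labelled cKO, Adam8, which was higher after IR. Among 18 matrix substrates 1 of 8 was past it in cells labelled WT, Vcan (1.05), and 4 of 9 in cells labelled cKO, of which Vcan, Col4a1 and Col4a2 were higher (1.59, 1.22 and 3.02) and Col3a1 was lower (-1.49). Of the 7 receptors and co-factors, 0 were past it in either label. In control tumors, 2 other metalloproteinases (Mmp2 and Mmp9) and Plau were past the limit between genotypes, all higher in cells labelled cKO, and after IR Col4a2 was higher and Col3a1 lower. The 8 fibroblast markers summed to 7.72 CPM in immune cells of control WT, 11.8 in IR WT, 14.9 in control cKO and 8.51 in IR cKO, with Pdgfra at 0 in all 4 groups, and their part in the values of Mmp2, Plat and Col3a1 was not tested.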

How the data were processed

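The deposited values were raw UMI counts per gene and hashtag for every barcode. The authors used Cell Ranger on 10x Genomics 3′ v3.1 libraries with the mm10 reference. The submitters' processing notes name Cell Ranger 6.0.1 and Seurat 4.0.6, and the file headers name Cell Ranger 4. Barcodes with at least 500 UMIs, at least 200 genes, at most 25% mitochondrial UMIs and at least 20 hashtag UMIs were kept. Cells were labelled WT where hashtag B0301 was at least as high as B0302, and cKO where B0302 was at least 4 times B0301. Scrublet (scanpy 1.11.5) marked 1 to 8 barcodes per library at its own threshold and so had not worked, and the 6% with the highest scores were removed instead. Seurat 5.3.0 clustered the cells (2000 variable genes, 40 components, resolution 0.8). A cluster took a name where at least 4 markers of 1 class were raised (in at least 25% of cells and 2-fold) and no other class had more markers among its 10 leading genes, and where a cluster of low depth had a marker of its class among them. These thresholds were set after the clusters were seen. Leading genes were at first taken over all cells. They were changed to those within the cluster's main tissue after the results of the first reference had been seen, which took the name macrophage-like from cluster 15 and gave the name neutrophil-like to cluster 12. The first reference is among the alternatives. UMIs were summed per group and given per 1000000 gene UMIs (CPM), with exact Poisson or Clopper-Pearson 95% intervals. Log2 ratios had 1 UMI, scaled to depth, added to each sum, with an exact conditional binomial interval. No test was made, since each group was 1 pool. Free RNA can add UMIs to any barcode, and no correction was made. Code was tested on simulated data. The 7 genes, the lists and the rule for named genes (the 7 genes, list genes past the limit with at most the 4 largest given values, the 3 most similar genes for each) were chosen with earlier results of these data known. Gene positions came from GENCODE vM21 on the same build. Alternatives were 11 planned and 5 added after seeing the data, with edgeR 4.0.16 for TMM factors. Counts for the plasminogen activation list are not reported here.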

Additional observations from a re-analysis of the deposited data

Results flagged for a closer look

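Within cluster 3, Mmp12 and Timp1 went opposite ways after IR in the 2 genotype labels, with both counting intervals off 0. The log2 ratio of IR to control for Mmp12 was 0.65 in cells labelled WT and -0.0765 in cells labelled cKO. For Timp1 it was 0.18 in cells labelled WT and -0.39 in cells labelled cKO. The difference between labels was not tested, since each group was 1 pool.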

How the results depend on the processing

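Of the 144 counts of members past the limit under other settings, 130 stayed within 1.5 times the value reported. The 144 include tumor-against-blood counts, which Mmp12, Mmp13, Mmp14 and Timp1 nearly fix, since the tumor alone brought them to the UMI minimum. The share that stayed is therefore no measure of stability for the comparisons within the tumor. All 14 counts that moved lay in those comparisons, most of them in macrophage-like cells. In tumor immune cells, IR against control, the WT count (0) was 1 with WT called only at 4 times the other hashtag, and the cKO count (3) was 1 with at least 1 hashtag UMI and 5 with non-immune clusters included. For cKO against WT after IR the count (0) was 1 with at least 20 UMIs per gene. In macrophage-like cells, IR against control, the WT count (2) was 1 with that hashtag rule, at resolutions 1.2 and 0.4 and with leading genes over all cells, and 0 read from the other tumor matrix. The cKO count (4) was 2 with at least 1 hashtag UMI and with leading genes over all cells. For cKO against WT, the control count (2) was 0 at resolution 0.4, and the IR count (0) was 1 at resolution 1.2 and from the other matrix. Timp2 in cells labelled cKO had the other sign after IR, at -1.31 in macrophage-like cells at resolution 0.4 and at 0.39 in immune cells at equal cluster shares. The macrophage-like class at resolution 0.4 was a larger and different set of cells, so its values are not a second reading of the same cells. The cause was not tested. No paired analysis was possible because each group was 1 pool.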
